A study of Mus musculus with 64 samples.

Results

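Regnase-1 loss was followed in mouse CD4 T cells that had not been restimulated, by comparing 4 libraries of cells with deleted Zc3h12a (KO) with 4 libraries of control cells (WT), 8 of the 64 RNA-sequencing libraries of the series. Members were taken by label: they are the KO and WT libraries at 0 h of restimulation. The cells were CD4 T cells from the spleen of C57BL/6J mice. KO cells had the genotype Zc3h12a fl/fl;Cd4-Cre-ERt2, and WT cells were Cd4-Cre-ERt2 with no floxed gene, so both carried the Cre recombinase made under the Cd4 gene and both had been treated in culture with 4'-OH-tamoxifen, which switches this Cre on. All cells had been activated through CD3 and CD28 under Th1 conditions for 40 h and kept in medium with IL-2 for 2 days before RNA was taken. Cells with deleted Rc3h1 and Rc3h2 (DKO, Rc3h1/2 fl/fl;Cd4-Cre-ERt2) and with all 3 genes deleted (TKO, in which Rc3h1/2 fl/fl and Zc3h12a fl/fl were combined with the same Cre) at 0 h, 4 libraries each, are used below where they bear on the 0 h comparison. So are KO and WT cells given antibodies to CD3 and CD28 again for 1, 2 or 4 h, 4 libraries each. The other groups of the series cover DKO and TKO cells after restimulation.

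Regnase-1, the product of Zc3h12a, is an endoribonuclease that binds stem-loop structures in the 3′ untranslated region (UTR) of mRNAs, with a preference for loops made of a pyrimidine, a purine and a pyrimidine, and cuts the mRNA. In T cells it is known to restrain mRNAs of costimulatory receptors, transcription factors and cytokines, and it is itself cleaved after antigen receptor signalling by the paracaspase MALT1. Roquin-1 and Roquin-2, the products of Rc3h1 and Rc3h2, bind similar stem-loops and recruit mRNA decay enzymes.

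The 4 KO libraries held 7103680 to 8348190 reads and the 4 WT libraries 6224391 to 7532424 reads. Levels are given as counts per 1000000 reads (CPM) after scaling, with the SD over the 4 libraries of a group after ±. Differences are log2 changes with their standard errors, KO minus WT unless another pair is named. They were fitted to log2(value + 1), where the value is the reads of a gene at the median scaled depth of the libraries and not its CPM, and adjusted p-values are from limma with the Benjamini-Hochberg method. The cells carried transcripts of dividing cells: Mki67, a marker of dividing cells, stood at 1282 ± 114 CPM in KO cells and 1644 ± 39.5 CPM in WT cells (SD, n = 4 each). The summed level of the 15 CD4 T cell markers was 2241 to 2668 CPM in KO libraries and 2037 to 2783 CPM in WT libraries. Markers of other cells were low, and no listed marker in the table was at 0 in all 8 libraries. The 2 CD8 genes summed to 5.14 to 35.5 CPM in KO cells, the highest in KO library 3, and to 3.42 to 16.3 CPM in WT cells. The B cell list summed to 210.5 to 310.3 CPM in KO cells and 123.7 to 238.2 CPM in WT cells, nearly all of it Ighm; without Ighm the sums were 9.70 to 26.4 CPM in KO cells and 6.49 to 21.2 CPM in WT cells. Myeloid markers summed to 47.1 to 64.2 CPM in KO cells and 35.6 to 52.2 CPM in WT cells, most of it Ctss. KO library 4 and WT library 3 deviated together from their groups along the first component of the residual variation, which held 27.4% of it, and counts without both are given below where they differ. Their scores on it were 38.2 and 80.05. WT library 4 lay far out on the other side, at -50.06, and was kept in those counts. Single libraries stood out along this component in most groups after restimulation too. In the 8 libraries at 0 h, 32.2% to 37.6% of the reads lay in the 10 most abundant loci of the library. KO library 4 and WT library 3 had the largest such share of their groups, 36.7% and 37.6%. They also had the fewest genes with reads, 20857 and 19590. The noncoding RNA Xist was present in 1 of 4 KO libraries and 2 of 4 WT libraries, so each group came from more than 1 animal, and the sex of the donor was not balanced between KO and WT.

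The targeted gene did not separate the groups at 0 h. Zc3h12a had 14.1, 12.7, 17.1 and 9.25 CPM in the KO libraries, against 11.8, 10.4, 10.1 and 9.04 CPM in the WT libraries. The groups overlapped, with means of 13.3 ± 3.25 CPM in KO cells and 10.3 ± 1.14 CPM in WT cells (SD, n = 4 each; exact 2-sided permutation test, p = 0.143, adjusted p = 0.214 over 3 genes, where 0.0286 is the smallest p that 70 arrangements can give). These are reads over the whole gene (GRCm38 chr4:125118423-125127840, minus strand), and which exons were floxed is not given in the sources used here, so reads of a transcript without them would still be counted and the 0 h value does not check the label. At 1 h of restimulation Zc3h12a averaged 69.6 ± 14.2 CPM in KO cells and 113.5 ± 14.8 CPM in WT cells, with no overlap between the groups (exact permutation p = 0.0286, n = 4 each). At 2 h it averaged 53.2 ± 7.68 CPM in KO cells and 86.0 ± 32.8 CPM in WT cells (exact permutation p = 0.0857), and by 4 h the levels were 16.4 ± 4.67 CPM in KO cells and 18 ± 3.18 CPM in WT cells (exact permutation p = 0.543). The groups overlapped at both times. Rc3h1 averaged 82.9 ± 8.5 CPM in KO cells and 78.9 ± 10.5 CPM in WT cells (exact permutation, adjusted p = 0.543). Rc3h2 averaged 78.3 ± 6.11 CPM in KO cells and 67.2 ± 5.61 CPM in WT cells (exact permutation, adjusted p = 0.171).

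At 0 h more genes were higher than lower in KO cells. Of 16140 genes tested with limma, 188 (1.16%) were higher in KO cells and 27 (0.167%) were lower at an adjusted p under 0.05; such genes are referred to as called. The higher genes had a median log2 change of 1.17 (0.36 to 5.51) and 118 of them changed at least 2-fold on this scale, whereas the lower genes had a median of -0.76 (-2.13 to -0.31) and 9 did. Over all genes tested the median was -0.03. All 4 KO libraries lay above all 4 WT libraries for 526 genes (3.26%) and below them for 365 (2.26%); among the genes called, this held for 168 of the 188 higher and 21 of the 27 lower. Of the higher genes, 102 averaged at least 10 CPM in WT cells and 27 averaged under 1 CPM there; of the lower genes, 22 averaged at least 10 CPM in WT cells. The balance of directions depended on scaling: 87.4% of the genes called were higher in KO cells, against 74.6% with median-of-ratios size factors (156 higher, 53 lower) and 99.1% with the deposited scaling (2454 higher, 22 lower), under which the median of all genes was 0.22. Without KO library 4 and WT library 3 the counts were 132 higher and 6 lower, and within the 5 libraries that lacked Xist they were 69 higher and 4 lower. In bulk RNA, fewer cells of a type and less RNA per cell cannot be told apart.

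**Figure D1:**
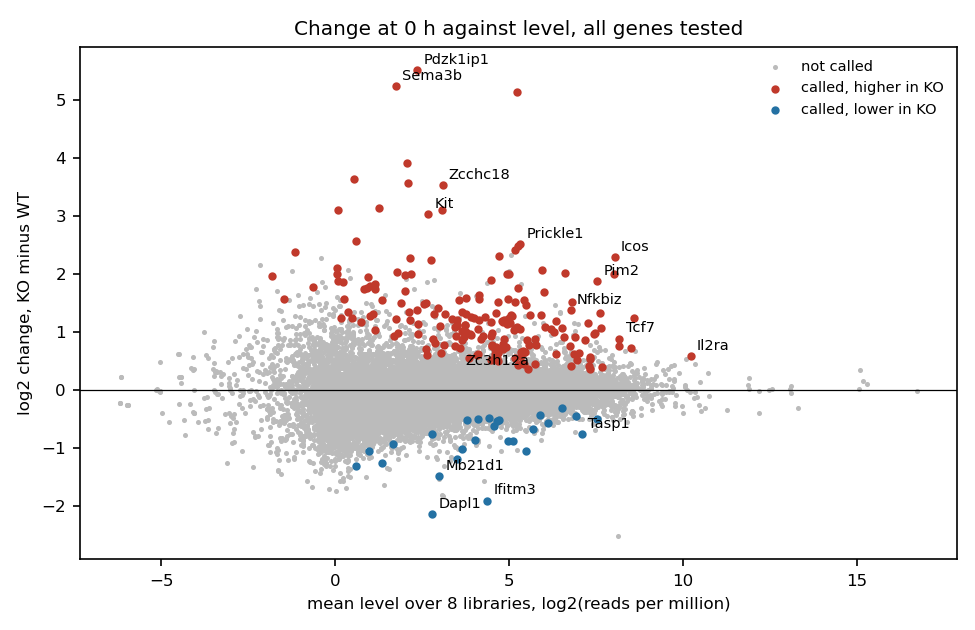
Log2 change at 0 h, KO minus WT (vertical axis), against the mean level over the 8 libraries as log2 CPM (horizontal axis), for each gene tested that had reads in them; red points were called higher in KO cells, blue points lower and grey points were not called. The 188 higher genes reach a log2 change of 5.51 (Pdzk1ip1) and the 27 lower genes reach -2.13 (Dapl1), while Zc3h12a sits among the genes not called.

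Among mRNAs known as Regnase-1 targets from earlier work, 4 of 20 tested were called higher and none lower, and 19 of 20 had a log2 change above 0, with a median of 0.38, against 7281 of 16140 genes above 0 and a median of -0.03 over all genes. The deleted gene Zc3h12a is itself on this list and counts in the 20 and the 19, with a log2 change of 0.33 that was not called. The 4 were Icos, an inducible costimulatory receptor, Ikzf2, which encodes the transcription factor Helios, Nfkbiz, which encodes the nuclear NF-kB regulator IkB-zeta, and Il2ra, the alpha chain of the IL-2 receptor. Icos had 485, 529.8, 372 and 352 CPM in the KO libraries, against 80.0, 78.9, 67.1 and 137 CPM in the WT libraries. The lowest KO library was more than 2-fold above the highest WT library, and the log2 change was 2.29 ± 0.40 (adjusted p = 0.000144). Ikzf2 had 190.0, 181, 132 and 116 CPM in KO cells, against 22.9, 26.9, 72.3 and 43.6 CPM in WT cells. Ikzf2 rose by 2.02 ± 0.33 on the log2 scale (adjusted p = 5.4e-05). Its groups did not overlap, although WT library 3 was more than 2-fold above WT libraries 1 and 2. Nfkbiz had 166, 157, 151 and 150.2 CPM in KO cells, against 47.4, 39.7, 78.1 and 86.1 CPM in WT cells. Nfkbiz rose by 1.38 ± 0.21 on the log2 scale (adjusted p = 9.38e-06). The KO libraries lay close together and all above the WT libraries. Il2ra was the most abundant of the list, at 1443 ± 238 CPM in KO cells and 960.1 ± 153 CPM in WT cells (SD, n = 4 each), a log2 change of 0.59 ± 0.16 (adjusted p = 0.0478), and its call was lost without any one of KO libraries 1, 2 and 3 or WT libraries 1, 2 and 3 and without KO library 4 and WT library 3 together.

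Other known targets were not called. Ctla4, an inhibitory receptor, had 100.4, 199, 71.4 and 135 CPM in KO cells, against 29.2, 31.7, 56.9 and 92.1 CPM in WT cells, a log2 change of 1.32 ± 0.42 (adjusted p = 0.122). Its groups overlapped through KO library 3 and WT library 4, and without WT library 4 it was called. Irf4, a transcription factor of activated T cells, averaged 120.1 ± 35.9 CPM in KO cells and 78.4 ± 14.5 CPM in WT cells (adjusted p = 0.213). Tnfrsf4, the costimulatory receptor OX40, averaged 57.5 ± 18.3 CPM in KO cells and 44.5 ± 14.4 CPM in WT cells (adjusted p = 0.746), and Rel, an NF-kB subunit, had a log2 change of 0.40 ± 0.17 (adjusted p = 0.383). The deposited scaling called 9 of the 20 higher, and without KO library 4 and WT library 3, 3 were called and 17 lay above 0. The transferrin receptor gene Tfrc, the transcription factor gene Myc and the cytokine gene Tnf had log2 changes of 0.20 ± 0.14, 0.09 ± 0.18 and 0.06 ± 0.34.

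The 3′ UTRs of the genes tested were searched for the kind of hairpin that Regnase-1 is known to bind: at least 5 contiguous base pairs, G-U pairs included, closing a loop of 3 bases made of a pyrimidine (C or T), a purine (A or G) and a pyrimidine (C or T), on the mRNA strand (longest annotated 3′ UTR of a protein-coding transcript, GENCODE vM21, GRCm38). The hairpins below lie in genes whose levels are described here, which were picked after their values were seen, and the loop is in capitals. For each gene only the 1 or 2 hairpins with the fewest G-U pairs, and then the longest stem, were kept. Icos held 5 hairpins, Nfkbiz 4, Tasp1 3, Prickle1 2 and Pou2f2 1. Those kept by this order for Ikzf2, Cd40lg and Zcchc18, with 1, 3 and 2 G-U pairs, are not printed.
Icos, chr1:60998050-60998070, plus strand: gcattttttTACaaaaaatgc
Icos, chr1:60999487-60999499, plus strand: atttcTGTgaaat
Nfkbiz, chr16:55812613-55812629, minus strand: ttgtttcTATgaaacaa
Nfkbiz, chr16:55812581-55812605, minus strand: tagttcactatTATatagtggatta
Prickle1, chr15:93500039-93500051, minus strand: aacacTGTgtgtt
Pou2f2, chr7:25088851-25088863, minus strand: ttttgTGCcaaaa
Tasp1, chr2:139833677-139833689, minus strand: tgcgcCGTgtgta
The first Icos stem has 9 pairs and the second Nfkbiz stem has 11, of which 2 are G-U pairs, and the loops of the Nfkbiz hairpins start at bases 108 and 136 after the stop codon. Tasp1, the last in the list, is a gene that fell in KO cells, and 2 of the 5 pairs in its printed stem are G-U pairs. Such hairpins were common: at least 1 was found in 72.4% of the higher genes with an annotated 3′ UTR (123 of 170), in 74.1% of the lower genes (20 of 27) and in 63.9% of all genes tested (8661 of 13558). The 3′ UTRs differed in length, with medians of 1500 bases in higher genes, 2474 in lower genes and 1166 in all genes, and the density was 1.2, 1.02 and 1.09 hairpins per kb. By length of the 3′ UTR, a hairpin was found in 24.2% of the higher genes and 22.5% of the genes not called under 500 bases, in 64% and 53.7% at 500 to under 1000 bases and in 77.8% and 76.0% at 1000 to under 2000 bases. At 2000 to under 4000 bases it was found in 95.7% and 93.5%, and at 4000 bases or more in 95% and 99.4%. A match describes the letters and is not a binding site shown by these data.

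The largest rises were in genes that were near 0 in WT cells. Pdzk1ip1, which encodes a small membrane protein that binds PDZ-domain proteins, had 15.4, 7.47, 12.1 and 5.53 CPM in the KO libraries, against 0.13, 0.127, 0 and 0.11 CPM in the WT libraries. Pdzk1ip1 rose by 5.51 ± 0.40 on the log2 scale (adjusted p = 7.38e-15). Sema3b, which encodes a secreted semaphorin, had 12, 5.22, 5.89 and 3.38 CPM in KO cells, against 0, 0, 0 and 0.221 CPM in WT cells. Sema3b rose by 5.24 ± 0.65 on the log2 scale (adjusted p = 9.22e-08). Both genes rested on few WT reads: Pdzk1ip1 had 341 reads in KO cells and 3 in WT cells, a ratio of CPM of 101 (95% exact binomial interval 34.4 to 494, counting error only), and Sema3b had 222 and 2 reads, a ratio of 99.0 (27.1 to 822). Ermn, the gene of the cytoskeletal protein ermin, had 5.50, 17.4, 4.95 and 4.06 CPM in KO cells, against 0.13, 0.381, 0.162 and 0.992 CPM in WT cells. Ermn rose by 3.91 ± 0.59 on the log2 scale (adjusted p = 9.38e-06), a call lost with limma voom. KO library 2 was over 3-fold above the other KO libraries, and the groups did not overlap. Il24, a cytokine gene of the IL-10 family, had 7.34, 6.05, 6.72 and 11.7 CPM in KO cells, against 0.389, 1.01, 0.811 and 0.221 CPM in WT cells. Il24 rose by 3.57 ± 0.53 on the log2 scale (adjusted p = 7.38e-06), a call also lost with limma voom. Kit, the receptor of stem cell factor, had 13.3, 13.8, 13 and 5.64 CPM in KO cells, against 0.907, 1.40, 2.11 and 0.772 CPM in WT cells. Kit rose by 3.03 ± 0.41 on the log2 scale (adjusted p = 9.09e-07). Mast cell and basophil markers, a cell type that carries much Kit, summed to 0.949 to 1.92 CPM in KO cells and 1.43 to 2.28 CPM in WT cells.

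Of the other genes among the 12 largest rises, Bmf and Zcchc18 were also low in WT cells, and the rest averaged over 5 CPM there. Prickle1, a gene of planar cell polarity signalling (chr15:93499114-93595891), had 72.4, 67.5, 80.9 and 51.8 CPM in KO cells, against 12.2, 11.0, 8.92 and 15.3 CPM in WT cells. Prickle1 rose by 2.52 ± 0.23 on the log2 scale (adjusted p = 6.28e-12). Pou2f2, which encodes the octamer-binding factor Oct-2 (chr7:25087344-25179726), had 34.6, 51.2, 38.2 and 51.1 CPM in KO cells, against 6.87, 7.36, 9.89 and 10.9 CPM in WT cells. Pou2f2 rose by 2.31 ± 0.20 on the log2 scale (adjusted p = 5.26e-13). Both separated the groups by over 3-fold between the nearest libraries. Maf, the transcription factor c-Maf, had 79.9, 77.4, 58.2 and 26.4 CPM in KO cells, against 13.2, 10.9, 5.19 and 15.1 CPM in WT cells. Maf rose by 2.41 ± 0.65 on the log2 scale (adjusted p = 0.0443). Its KO libraries spread over 3-fold, and its call was lost without any one of KO libraries 1, 2 and 3 or WT libraries 1, 2 and 3 and without KO library 4 and WT library 3 together. Bmf, a BH3-only gene that promotes apoptosis, had 7.22, 9.37, 4.01 and 9.02 CPM in KO cells, against 0.648, 1.14, 2.27 and 1.87 CPM in WT cells. Bmf rose by 2.28 ± 0.45 on the log2 scale (adjusted p = 0.000912). Gpld1, a phospholipase that cuts membrane anchors, had 70.8, 109.8, 35.2 and 34.6 CPM in KO cells, against 7.65, 6.72, 5.51 and 33.3 CPM in WT cells. Gpld1 rose by 2.48 ± 0.52 on the log2 scale (adjusted p = 0.00274), and WT library 4 nearly reached KO libraries 3 and 4. Zcchc18, a zinc finger gene, had 16.3, 16.6, 11.0 and 19.2 CPM in KO cells, against 0.648, 1.65, 1.30 and 1.54 CPM in WT cells. Zcchc18 rose by 3.53 ± 0.32 on the log2 scale (adjusted p = 5.2e-12). Zcchc18 overlaps Slc25a53, itself higher by 1.22 (log2), and Gpld1 overlaps Mrs2, both on opposite strands, and the strand setting of the counting is not given in the sources used here, so reads of such pairs could not be told apart. Among genes named below, Tcf7 overlaps Gm26551, which had 26.5% as many reads, Stat3 overlaps Stat5a (18.8%) and Sh2d1a overlaps Tenm1 (16.5%). Obox1, also named below, overlaps Obox3 (76.96%) on the opposite strand and Obox2 (12.25%) on the same strand.

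**Figure D2:**
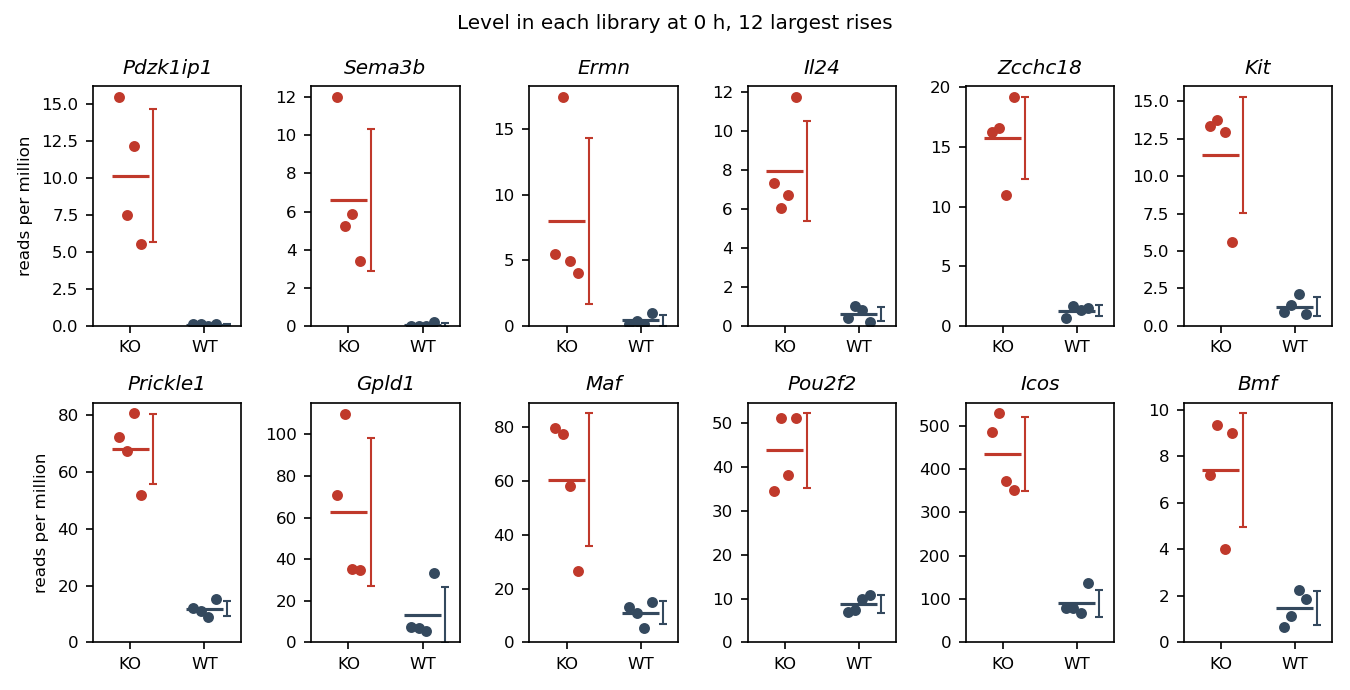
Level in CPM in each of the 4 KO and 4 WT libraries at 0 h for the 12 largest rises by the naming rule, 1 panel per gene with its own axis from 0; points are libraries, lines are means and bars are ± SD. In all 12 panels the 4 KO points lie above the 4 WT points; the nearest approach is in Gpld1, with 34.6 CPM in KO library 4 and 33.3 CPM in WT library 4.

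For the counts of called list members given from here on, the shares over all genes tested were 1.16% higher and 0.167% lower. Genes of follicular helper T cells, which help B cells in germinal centres, had 7 of 14 tested members higher and none lower, with a median log2 change of 0.92. Besides Icos and Maf these were Cd40lg, the ligand by which T cells signal to B cells, Slamf6, a receptor of the SLAM family, Sh2d1a, the adaptor of those receptors, and the transcription factors Batf and Tcf7. Cd40lg had 99.0, 119, 82.3 and 87.7 CPM in KO cells, against 23.2, 20.9, 34.4 and 45.6 CPM in WT cells. Cd40lg rose by 1.69 ± 0.26 on the log2 scale (adjusted p = 9.38e-06). Batf had 50.9, 44.9, 42.2 and 55.7 CPM in KO cells, against 20.1, 16.7, 22.9 and 19.7 CPM in WT cells. Batf rose by 1.28 ± 0.16 on the log2 scale (adjusted p = 6.62e-08). Neither gene overlapped between the groups. Sh2d1a and Slamf6, named after their values were seen, averaged 84.7 ± 23.1 and 69.4 ± 16.5 CPM in KO cells, against 35.6 ± 13.7 and 28.7 ± 9.62 CPM in WT cells, and both rose by 1.29 (log2; adjusted p = 1.39e-06 and 0.00109). Tcf7, the gene of TCF-1, had 348, 313, 347 and 487 CPM in KO cells, against 156, 161, 296 and 212 CPM in WT cells (log2 change 0.89 ± 0.22, adjusted p = 0.021), and lost its call without KO library 4, WT library 1 or WT library 2. Bcl6, the factor that directs this cell type, and the cytokine gene Il21 are named for their known role, with their values seen. Bcl6 averaged 13.3 ± 5.26 CPM in KO cells and 6.71 ± 3.13 CPM in WT cells (adjusted p = 0.352), and Il21 averaged 0.352 CPM in KO cells and 0.324 CPM in WT cells. Without KO library 4 and WT library 3, 6 of the 14 were called.

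Among genes of regulatory T cells 4 of 10 were higher, with a median of 0.34: Ikzf2 and Il2ra, Ikzf4, which encodes the factor Eos, and Ebi3, a subunit shared by IL-27 and IL-35. Ikzf4 had 41.0, 29.3, 40.2 and 29.8 CPM in KO cells, against 18.1, 15.9, 10.7 and 11.6 CPM in WT cells. Ikzf4 rose by 1.32 ± 0.27 on the log2 scale (adjusted p = 0.00198). Ebi3 averaged 3.43 ± 1.23 CPM in KO cells and 0.993 ± 0.603 CPM in WT cells, a log2 change of 1.75 ± 0.39 (adjusted p = 0.00637), a call lost without KO library 2 or WT library 2. Foxp3, the defining factor of regulatory T cells and likewise named for its role, was not called, at 7.62 CPM in KO cells and 18.3 CPM in WT cells (adjusted p = 0.451).

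Of 17 genes of Th2 and Th9 cells 4 were higher and none lower, with a median of 0.68. Besides Il24 and Kit, Ccr4, a chemokine receptor, had 59.3, 37.2, 58.0 and 34.3 CPM in KO cells, against 30.2, 27.0, 16.5 and 18.3 CPM in WT cells. Ccr4 rose by 1.03 ± 0.22 on the log2 scale (adjusted p = 0.00415). Il13, a Th2 cytokine gene, averaged 0.587 ± 0.122 CPM in KO cells and 0.132 ± 0.106 CPM in WT cells, and its call (log2 change 1.56 ± 0.38, adjusted p = 0.0179) was lost without KO library 3, KO library 4 or WT library 1. None of 18 Th1 genes was called by limma, where 6 had an unadjusted p under 0.05, and none by limma voom. The Th1 median was 0.34, and 14 of the 18 genes had a log2 change above 0. The deposited scaling called 3 of them higher and 1 lower, where it called 2454 of 16140 genes tested higher and 22 lower. Ifng, the main Th1 cytokine gene, had 65.4, 6.88, 31.5 and 3.72 CPM in KO cells, against 9.72, 8.25, 1.30 and 5.29 CPM in WT cells, a log2 change of 1.61 ± 0.57 (adjusted p = 0.204). KO libraries 1 and 3 stood above all WT libraries and KO libraries 2 and 4 did not, and without KO library 4 Ifng was called. Eomes, a T-box factor, had 12.2, 2.49, 14.9 and 11.6 CPM in KO cells, against 30.6, 41.1, 33.9 and 10.1 CPM in WT cells, a log2 change of -1.57 ± 0.46 (adjusted p = 0.0794); it was called without KO library 3 or WT library 4. Runx3 and Il18r1, the most abundant of the Th1 list, averaged 275 ± 55.7 and 332 ± 148 CPM in KO cells, against 364 ± 48.0 and 292 ± 52.5 CPM in WT cells. In the Th17 list 1 of 10 was called, Ahr, the aryl hydrocarbon receptor, at 23.0 ± 14.2 CPM in KO cells and 8.90 ± 3.48 CPM in WT cells (log2 change 1.25 ± 0.30, adjusted p = 0.0159), with overlapping groups and a call lost without KO library 1, KO library 3 or WT library 3.

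Of 13 costimulatory receptors 3 were higher (median 0.39): Icos, Tnfrsf1b, which encodes TNF receptor 2, and Tnfrsf25, which encodes death receptor 3. Tnfrsf1b had 133, 89.4, 112 and 83.3 CPM in KO cells, against 57.6, 51.0, 54.3 and 42.8 CPM in WT cells. Tnfrsf1b rose by 1.00 ± 0.15 on the log2 scale (adjusted p = 9.38e-06), and the groups did not overlap. Tnfrsf25 averaged 13.8 ± 2.24 CPM in KO cells and 8.10 ± 0.884 CPM in WT cells (adjusted p = 0.0284), a call lost without KO library 1, 3 or 4 or WT library 1, 3 or 4. Of 12 inhibitory receptors Cd200 was higher, at 7.32 ± 1.97 CPM in KO cells and 3.18 ± 0.313 CPM in WT cells (adjusted p = 0.0472, lost without any library but KO library 3), and Entpd1 was lower. Of 12 TNF family ligands Cd40lg and Tnfsf14, which encodes LIGHT, were higher (median 0.47). Tnfsf14 had 2.94, 2.96, 2.95 and 3.61 CPM in KO cells, against 1.17, 1.14, 0.973 and 1.43 CPM in WT cells. Tnfsf14 rose by 1.32 ± 0.26 on the log2 scale (adjusted p = 0.0012), a call lost with limma voom and in a fit to the 8 KO and WT libraries alone. Of 24 cytokine receptor chains Il2ra was higher and Tgfbr1 lower.

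Pim2, a kinase gene induced by cytokines, had 341, 254, 248 and 326 CPM in KO cells, against 68.1, 69.2, 113 and 71.7 CPM in WT cells. Pim2 rose by 1.88 ± 0.21 on the log2 scale (adjusted p = 2.99e-09). The lowest KO library was over 2-fold above the highest WT library. Stat3, the second of 10 SOCS, PIM and STAT genes that was called, averaged 146 ± 6.59 CPM in KO cells and 103 ± 8.76 CPM in WT cells (adjusted p = 0.0148), a call lost without KO library 1, WT library 2 or WT library 4. In the NF-kB pathway 2 of 20 were higher, Nfkbiz and Nfkbia, the gene of the inhibitor IkB-alpha, at 23.7 ± 3.5 CPM in KO cells and 13 ± 3.11 CPM in WT cells (log2 change 0.88 ± 0.15, adjusted p = 0.000109). In a list of 20 AP-1, BATF and IRF factors, to which genes of the Ikaros family had been added, Batf and the Ikaros family gene Ikzf4 were higher (median 0.31), and of 9 early factors Nr4a1, an orphan nuclear receptor, was higher, at 12.9 ± 4.07 CPM in KO cells and 5.11 ± 1.59 CPM in WT cells (log2 change 1.31 ± 0.28, adjusted p = 0.00382). The Nr4a1 call was lost with limma voom and in fits to the 8 libraries or the 0 h libraries alone. Among 18 apoptosis genes Bmf and Bcl2l1 were higher, genes with opposite known roles. Bcl2l1, which encodes the survival factor Bcl-xL, had 204, 221, 198 and 227 CPM in KO cells, against 92.8, 89.5, 107 and 93.4 CPM in WT cells. Bcl2l1 rose by 1.15 ± 0.16 on the log2 scale (adjusted p = 6.35e-07). Zc3h12d, which encodes the related Regnase-4, was the only one of 15 family members and partners called, at 54.1 ± 7.43 CPM in KO cells and 26.3 ± 5.88 CPM in WT cells (adjusted p = 0.0353); the call was lost without KO library 1, 2, 3 or 4 or WT library 1, 2 or 4, and the calls of Zc3h12d, Tnfrsf25, Cd200 and Il13 were lost without KO library 4 and WT library 3 together.

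**Figure D3:**
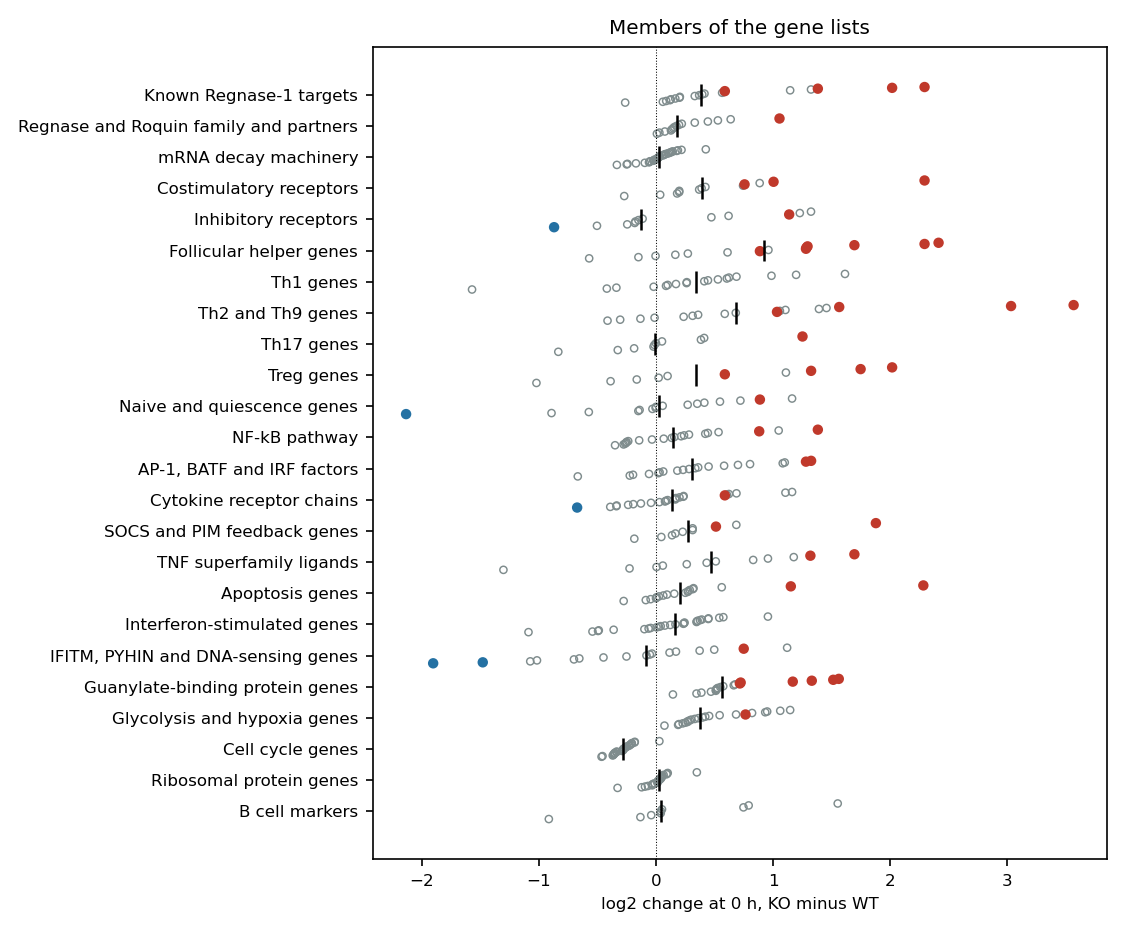
Log2 change at 0 h, KO minus WT (horizontal axis), of each tested member of 24 gene lists (vertical axis); filled red points were called higher, filled blue points lower, open points were not called, and the black bar is the list's median. Follicular helper genes hold 7 called members with a median of 0.92, guanylate-binding protein genes hold 6 (Gbp11 under each of its gene IDs) with a median of 0.56, and the cell cycle list holds none with a median of -0.28.

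The lists of interferon-inducible genes differed in their calls. Over all genes tested, 1.16% were called higher and 7281 of 16140 had a log2 change above 0. Of 18 gene IDs of guanylate-binding protein and related GTPase genes, which act in defence against intracellular microbes, 6 were called higher and none lower, all 18 had a log2 change above 0, and the median was 0.56. Gbp2 had 289, 166, 282 and 391 CPM in KO cells, against 99.4, 105, 162 and 78.2 CPM in WT cells. Gbp2 rose by 1.33 ± 0.19 on the log2 scale (adjusted p = 1.61e-06). KO library 2 and WT library 3 lay next to each other, and the groups did not overlap. Gbp5, named after its values were seen, had 36.9, 35.7, 37.5 and 46.6 CPM in KO cells, against 14.9, 18.1, 17.5 and 18.7 CPM in WT cells. Gbp5 rose by 1.17 ± 0.21 on the log2 scale (adjusted p = 0.000322). Gbp11, listed under 2 gene IDs, rose by 1.56 and 1.51 (log2). Both of its IDs count in the 18 and in the 6, and the list held 17 gene names. Several of these genes are close copies whose reads the counting could split, so single members are uncertain. Without KO library 4 and WT library 3, 4 of the 18 were called and 17 lay above 0, and the deposited scaling called 17. Of 27 other interferon-stimulated genes none was called by limma (3 had an unadjusted p under 0.05) and none by limma voom. Of these 27, 19 had a log2 change above 0, with a median of 0.17. The deposited scaling called 4 of them higher, where it called 2454 of 16140 genes tested higher. Parp14, an ADP-ribosyltransferase gene of this list, averaged 137 ± 20.3 CPM in KO cells and 116 ± 10.7 CPM in WT cells. Among 17 genes of the IFITM and PYHIN families and of DNA sensing 2 were lower, Ifitm3 and Mb21d1, and 1 was higher, Aim2, a DNA sensor of the inflammasome, at 37.8 ± 7.39 CPM in KO cells and 22.6 ± 5.56 CPM in WT cells (adjusted p = 0.0327). The Aim2 groups overlapped, and its call was lost without KO library 1, 2 or 3 or WT library 2 or 4.

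Fewer genes fell, and by less. Ifitm3, a membrane protein that blocks entry of viruses, had 10.5, 7.59, 7.31 and 7.44 CPM in the KO libraries, against 26.2, 33.0, 55.4 and 18.5 CPM in the WT libraries. Ifitm3 fell by 1.90 ± 0.30 on the log2 scale (adjusted p = 2.49e-05). Mb21d1, which encodes the DNA sensor cGAS, had 3.18, 2.49, 6.48 and 5.19 CPM in KO cells, against 11.8, 11.8, 13.3 and 9.48 CPM in WT cells. Mb21d1 fell by 1.48 ± 0.23 on the log2 scale (adjusted p = 1.39e-05). In both genes every KO library was below every WT library. Tasp1, which encodes the protease taspase that cuts MLL, had 111, 88.1, 104 and 106 CPM in KO cells, against 192, 165, 158 and 173 CPM in WT cells. Tasp1 fell by 0.75 ± 0.13 on the log2 scale (adjusted p = 0.000211). Smad5, a signal transducer of bone morphogenetic protein receptors, had 19.1, 21.5, 16 and 17.9 CPM in KO cells, against 26.4, 25.9, 32.4 and 29.2 CPM in WT cells. Smad5 fell by 0.61 ± 0.12 on the log2 scale (adjusted p = 0.000964). These 4 genes kept their calls when any 1 library was left out.

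Genes that fell with calls resting on single libraries included receptors and kinases. Tgfbr1, a receptor kinase for TGF-beta, had 36.2, 38.2, 37.7 and 43.4 CPM in KO cells, against 55.2, 52.7, 95.3 and 53.0 CPM in WT cells. Tgfbr1 fell by 0.67 ± 0.15 on the log2 scale (adjusted p = 0.00594). WT library 3 was the highest by far, and without it neither Tgfbr1 nor Rab11fip4, a gene of vesicle traffic (24.2 ± 5.17 CPM in KO cells, 44.7 ± 11.1 CPM in WT cells, adjusted p = 0.00624), was called. Entpd1, the gene of the ectonucleotidase CD39, had 25.4, 24.7, 18.6 and 20.6 CPM in KO cells, against 34.4, 38.8, 40.4 and 50.5 CPM in WT cells. Entpd1 fell by 0.87 ± 0.23 on the log2 scale (adjusted p = 0.0318), and lost its call without KO library 2, 3 or 4 or WT library 2, 3 or 4. Lair1, a collagen-binding inhibitory receptor, averaged 11.4 ± 2.80 CPM in KO cells and 21.0 ± 7.18 CPM in WT cells (adjusted p = 0.0472, lost without KO library 1, 2 or 3 or WT library 1, 2 or 3). Rap1gap2, which switches off the small GTPase Rap1, averaged 29.6 ± 8.81 CPM in KO cells and 60.4 ± 11.8 CPM in WT cells (adjusted p = 0.0252, lost without KO library 1, 3 or 4 or WT library 1, 3 or 4). Prkce, a protein kinase C, averaged 56.7 ± 10.4 CPM in KO cells and 83.6 ± 13.7 CPM in WT cells (adjusted p = 0.0413, lost without KO library 1, 3 or 4 or WT library 3 or 4). Prkag2, a subunit of AMP-activated kinase, averaged 21.9 ± 2.34 CPM in KO cells and 31.2 ± 2.18 CPM in WT cells (adjusted p = 0.0107, lost without KO library 2), and Pag1, an adaptor that restrains Src kinases, averaged 153 ± 9.02 CPM in KO cells and 219 ± 28.6 CPM in WT cells (adjusted p = 0.0395, lost without any KO library or without WT library 1 or 3). Dapl1, a gene of naive T cells, had the largest fall, -2.13 ± 0.58 (log2; adjusted p = 0.0445), at 1.83, 1.07, 2.00 and 6.99 CPM in KO cells, against 6.87, 10.4, 14.4 and 12.1 CPM in WT cells; KO library 4 overlapped the WT range, and the call was lost without any library but that one. Without KO library 4 and WT library 3 together, Tgfbr1, Entpd1, Lair1, Rap1gap2, Prkce, Prkag2 and Pag1 were not called, and under the deposited scaling Entpd1, Lair1, Prkce, Prkag2 and Pag1 were not.

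**Figure D4:**
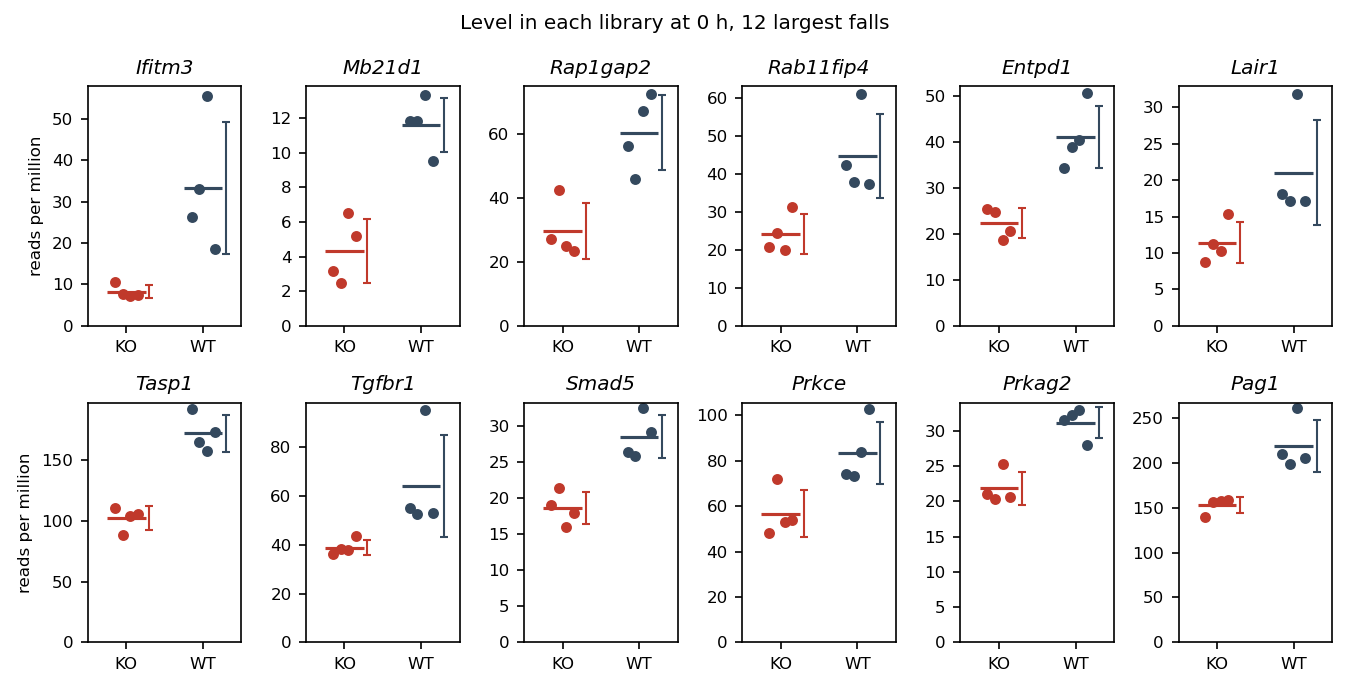
Level in CPM in each of the 4 KO and 4 WT libraries at 0 h for the 12 largest falls by the naming rule, 1 panel per gene with its own axis from 0; points are libraries, lines are means and bars are ± SD. In all 12 panels the 4 KO points lie below the 4 WT points; single high WT points stand out in Ifitm3 (55.4 CPM), Tgfbr1 (95.3 CPM) and Lair1 (31.8 CPM), all from WT library 3.

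Several groups held almost no called gene. Over all genes tested, 7281 of 16140 had a log2 change above 0. All 22 genes of glycolysis and hypoxia had a log2 change above 0 with a median of 0.38, which was 0.22 without KO library 4 and WT library 3 and 0.15 within libraries without Xist, where 19 of 22 lay above 0. Of the 22, only Hif1a, the hypoxia-inducible factor, was called, at 365 ± 91.3 CPM in KO cells and 212 ± 28.8 CPM in WT cells (adjusted p = 0.0279), and this call was lost with median-of-ratios scaling, without KO library 4 and WT library 3 together, and without KO library 1 or 2 or WT library 1, 2 or 3. In the cell cycle list 24 of 25 genes had a log2 change below 0 with a median of -0.28, and none was called by limma (2 had an unadjusted p under 0.05) or limma voom; under the deposited scaling 10 of the 25 lay above 0 and the median was -0.02. Top2a, a topoisomerase of dividing cells, averaged 794 ± 78.4 CPM in KO cells and 967 ± 138 CPM in WT cells (adjusted p = 0.491). None was called among 31 mRNA decay genes, 25 ribosomal protein genes, 18 cholesterol synthesis genes, 15 MYC and amino acid transport genes, 14 cytotoxic genes, 11 heat shock genes and 10 iron handling genes, of which 2, 1, 0, 0, 3, 0 and 1 had an unadjusted p under 0.05 in limma. Cnot1, the scaffold of the deadenylase complex, averaged 380.2 ± 26.8 CPM in KO cells and 373 ± 19.9 CPM in WT cells, a log2 change of 0.03 ± 0.08. Gzmb, the gene of granzyme B, averaged 114 ± 40.7 CPM in KO cells and 78.0 ± 50.1 CPM in WT cells (adjusted p = 0.58). Ctss, a protease gene on the myeloid list, rose by 0.66 ± 0.15 (log2; adjusted p = 0.00899) with overlapping groups, at 53.8 ± 8.80 CPM in KO cells and 34.5 ± 9.52 CPM in WT cells, and lost its call without KO library 1 or 4 or WT library 1 or 4; the other 2 myeloid markers tested were not called.

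Other fits ended the calls of some named genes. With limma voom Maf, Ebi3, Ahr, Il13, Cd200, Tnfrsf25 and Zc3h12d were not called, besides Ermn, Il24, Tnfsf14 and Nr4a1. With the 0 h libraries alone Maf, Il2ra, Hif1a, Stat3, Ahr, Il13, Gpld1, Tnfrsf25, Aim2 and Ctss were not called on the higher side, nor Tgfbr1, Rab11fip4, Smad5, Prkag2, Pag1, Rap1gap2, Prkce and Lair1 on the lower side. With the 8 KO and WT libraries alone Tcf7, Sh2d1a, Ebi3, Nfkbia, Gbp2, Ccr4, Cd200, Mb21d1 and Dapl1 were not called, besides Tnfsf14, nor were those lost with the 0 h libraries, apart from Maf, which was called. Median-of-ratios scaling ended the calls of Maf, Il2ra, Cd200, Aim2 and Zc3h12d besides that of Hif1a. Icos, Nfkbiz, Ikzf2, Prickle1, Pou2f2, Zcchc18, Pdzk1ip1, Sema3b, Cd40lg, Batf, Pim2, Bcl2l1 and Tnfrsf1b kept their calls in all of these fits, as did Ifitm3 and Tasp1 on the lower side. Within the libraries that lacked Xist, Icos was not called, and the others of this list were. Ikzf4, Slamf6, Gbp5, Gbp11, Tcf7, Ebi3, Ccr4, Stat3 and Gpld1 were among the other named genes not called there.

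KO cells were next compared directly with cells that lacked the Roquin genes at 0 h. Relative to DKO cells 57 genes (0.353%) were higher and 134 (0.83%) were lower in KO cells. Zc3h12a itself averaged 13.3 ± 3.25 CPM in KO cells and 35.8 ± 2.76 CPM in DKO cells, a log2 difference of -1.45 ± 0.19 (adjusted p = 7.19e-07). It averaged 10.3 ± 1.14 CPM in WT cells, so the KO mean was not below the WT mean. Slc30a4, a zinc transporter gene, had 85.4, 99.5, 74.2 and 134 CPM in KO cells, against 46.5, 38.9, 29.3 and 39.9 CPM in DKO cells, a log2 difference of 1.33 ± 0.16 (adjusted p = 1.15e-07), while it stood at 72.9 ± 18.6 CPM in WT cells. The groups of KO and DKO cells did not overlap. Il9r, the receptor of IL-9, had 0.856, 0.237, 0.707 and 0.564 CPM in KO cells, against 9.27, 6.26, 12.3 and 3.92 CPM in DKO cells, a log2 difference of -3.46 ± 0.52 (adjusted p = 1.71e-05). Lbp, which encodes a protein that binds lipopolysaccharide, averaged 0.826 ± 0.276 CPM in KO cells and 6.80 ± 2.68 CPM in DKO cells, a difference of -2.83 ± 0.50 (adjusted p = 0.000248). Tnfrsf8, the gene of CD30, averaged 8.82 ± 3.40 CPM in KO cells and 76.7 ± 47.2 CPM in DKO cells (difference -2.89 ± 0.73, adjusted p = 0.0301), Drc1, a ciliary gene, 30.7 ± 7.95 and 12 ± 4.80 CPM (1.42 ± 0.29, adjusted p = 0.00297), and Serpina3f, a protease inhibitor gene, 8.65 ± 4.67 and 2.01 ± 1.05 CPM (2.07 ± 0.51, adjusted p = 0.024). The calls of Tnfrsf8, Drc1 and Serpina3f were lost without DKO library 3, those of Tnfrsf8 and Serpina3f also without DKO library 2 or any of KO libraries 1, 3 and 4, and that of Tnfrsf8 without DKO library 4. Drc1 and Serpina3f were also not called without the 4 libraries at 0 h that stood apart (the pair named above, DKO library 1 and TKO library 4).

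Among the genes that changed in KO cells against WT cells, some also differed between KO and DKO cells; these comparisons share the KO libraries, so the values are given side by side. Prickle1 averaged 68.1 ± 12.2 CPM in KO cells, 27.6 ± 7.67 CPM in DKO cells and 11.9 ± 2.67 CPM in WT cells, and differed between KO and DKO cells by 1.32 ± 0.23 (adjusted p = 0.000192). Gbp2 averaged 282 ± 92.1 CPM in KO cells, 127 ± 25.6 CPM in DKO cells and 111 ± 35.7 CPM in WT cells, with a KO minus DKO difference of 1.11 ± 0.19 (adjusted p = 0.000111). Entpd1 averaged 22.3 ± 3.25 CPM in KO cells, 44.4 ± 3.91 CPM in DKO cells and 41.0 ± 6.82 CPM in WT cells, with a difference of -0.99 ± 0.23 (adjusted p = 0.0107). These 3 genes were chosen after their values were seen. Icos averaged 435 ± 86.2 CPM in KO cells and 604 ± 147 CPM in DKO cells, a difference of -0.47 ± 0.40 that did not pass the threshold (adjusted p = 0.821). Nfkbiz (156 ± 7.03 CPM in KO cells, 128 ± 39.4 CPM in DKO cells) and Pou2f2 (43.8 ± 8.64 and 34.9 ± 8.92 CPM) did not pass it either (adjusted p = 0.661 and 0.615).

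The loss of the Roquin genes on top of Regnase-1 was followed by comparing TKO with KO cells at 0 h, where 1850 genes (11.5%) were higher and 1434 (8.88%) lower in TKO cells. The balance turned with the deposited scaling, which gave 697 higher and 2343 lower: 56.3% of the genes called were higher, against 22.9% under that scaling. Of the 12 largest rises of KO cells, 9 were called higher still in TKO cells. Icos averaged 1285 ± 306 CPM in TKO cells and 435 ± 86.2 CPM in KO cells, a log2 difference of 1.55 ± 0.40 (adjusted p = 0.00475). Pdzk1ip1 averaged 60.2 ± 13.6 CPM in TKO cells and 10.1 ± 4.48 CPM in KO cells (2.63 ± 0.40, adjusted p = 3.14e-06), and Ermn averaged 93.1 ± 25.3 CPM in TKO cells and 7.99 ± 6.33 CPM in KO cells (3.74 ± 0.59, adjusted p = 8.67e-06). Sema3b, Kit, Bmf, Prickle1 and Zcchc18 had log2 differences of 3.14, 2.36, 2.44, 1.54 and 1.07. Il24 averaged 23.2 ± 9.19 CPM in TKO cells and 7.96 ± 2.57 CPM in KO cells (adjusted p = 0.0371). Maf, Gpld1 and Pou2f2 were not called, with differences of 0.02 ± 0.65, 0.41 ± 0.52 and 0.49 ± 0.20. Outside the 12, Batf and Pim2 were called higher, with differences of 1.33 and 1.15. Gbp2 ran the other way, at 173 ± 24.7 CPM in TKO cells and 282 ± 92.1 CPM in KO cells (-0.65 ± 0.19, adjusted p = 0.0105). Rap1gap2 and Tasp1, which had fallen in KO cells, were lower again in TKO cells by 1.58 and 0.74 on the log2 scale (differences of -1.58 ± 0.27 and -0.74 ± 0.13, adjusted p = 2.53e-05 and 7.97e-05).

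The genes with the largest rises in TKO cells over KO cells were low in KO and WT cells alike. Dlk1, a membrane protein related to Notch ligands, had 18.4, 12.3, 4.98 and 4.08 CPM in TKO cells, against 0.489, 0.356, 0.118 and 0 CPM in KO cells, a log2 difference of 4.77 ± 0.68 (adjusted p = 7.71e-07). Wnt10b, a Wnt ligand, had 7.44, 7.43, 8.22 and 6.76 CPM in TKO cells, against 0.245, 0, 0.118 and 0.451 CPM in KO cells, a difference of 4.74 ± 0.56 (adjusted p = 1.28e-08). Tnfrsf8 averaged 277 ± 144 CPM in TKO cells and 8.82 ± 3.40 CPM in KO cells, a difference of 4.74 ± 0.73 (adjusted p = 7.05e-06). In WT cells Dlk1, Wnt10b and Tnfrsf8 averaged 0.0551, 0.138 and 4.67 CPM. On the lower side, Pydc3, a PYHIN family gene, averaged 5.05 ± 1.77 CPM in TKO cells and 26.3 ± 4.46 CPM in KO cells (-2.41 ± 0.44, adjusted p = 8.48e-05), Obox1, a homeobox gene, 1.25 ± 0.562 and 5.29 ± 1.60 CPM (-2.06 ± 0.47, adjusted p = 0.00148), and Chl1, a cell adhesion gene, 24.2 ± 13.3 and 107 ± 48.2 CPM (-2.18 ± 0.75, adjusted p = 0.0324). The Chl1 call was lost without KO library 1, 2 or 3 or TKO library 1 or 4.

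The genes called at 0 h were then followed after restimulation, in other libraries. Whether the same animals gave libraries at several times is not in the labels. Xist was present in 1 of 4 KO and 2 of 4 WT libraries at every time, and the fit treats all libraries as independent. KO cells differed from WT cells in 297 higher (1.84%) and 52 lower genes (0.322%) at 1 h, in 758 (4.7%) and 203 (1.26%) at 2 h, and in 3539 (21.9%) and 1876 (11.6%) at 4 h. The deposited scaling gave 221 higher and 128 lower genes at 1 h, 385 higher and 349 lower at 2 h, and 581 higher and 2372 lower at 4 h. Without the library farthest out on the first component in each KO and WT group the counts were 248 higher and 40 lower at 1 h, 913 higher and 538 lower at 2 h, and 2325 higher and 1459 lower at 4 h. Of the 188 genes higher at 0 h, 131 were called higher at 1 h (69.7% of the 0 h list and 44.1% of the 1 h list), 126 at 2 h (67.0% and 16.6%) and 133 at 4 h (70.7% and 3.76%), and none was called lower at any time. Their median log2 change was 1.17 at 0 h, 0.97 at 1 h, 0.95 at 2 h and 0.91 at 4 h. Of the 27 genes lower at 0 h, 9 (33.3%), 7 (25.9%) and 8 (29.6%) were called lower at 1, 2 and 4 h, which was 17.3%, 3.45% and 0.426% of the lower genes at those times, and 5 were called higher at 4 h. Their median was -0.76 at 0 h, -0.49 at 1 h, -0.25 at 2 h and 0.06 at 4 h, when the median of all genes was 0.22. Both lists were picked by their values at 0 h, a choice that favours medians farther from 0 at that time than later. The medians at 0 h are therefore not on the same footing as the later ones.

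Few genes passed a test of the KO effect at a later time against the effect at 0 h: 3 with a more positive (0.0186%) and 1 with a more negative effect (0.0062%) at 1 h. At 2 h these counts were 28 (0.173%) and 5 (0.031%). At 4 h the effect was more positive for 315 genes (1.95%) and more negative for 39 (0.242%), with a median of all genes of 0.21, whereas the deposited scaling, with a median of -0.32, gave 18 and 949. That scaling also turned the balance at the earlier times, with 3 and 142 genes at 1 h and 14 and 307 at 2 h. Without the library farthest out in each group 69 genes were more positive and 13 more negative at 4 h. The KO effect on Pou2f2 shrank: it averaged 43.8 ± 8.64, 118.6 ± 25.7, 252.7 ± 51.7 and 178.5 ± 35.9 CPM in KO cells at 0, 1, 2 and 4 h, against 8.76 ± 1.95, 42.0 ± 14.3, 179.8 ± 32.6 and 194.2 ± 35.1 CPM in WT cells (SD, n = 4 each). Its log2 change of 2.31 at 0 h was 1.52 at 1 h, 0.49 at 2 h and -0.13 at 4 h, and the difference from 0 h was -1.82 ± 0.28 at 2 h (adjusted p = 0.00015) and -2.44 ± 0.28 at 4 h (adjusted p = 7.71e-08). The KO effect on Prickle1 grew: it averaged 68.1 ± 12.2, 257.6 ± 62.0, 345.6 ± 44.1 and 214.2 ± 54.8 CPM in KO cells at 0, 1, 2 and 4 h, against 11.9 ± 2.67, 7.91 ± 2.39, 13.5 ± 4.23 and 13.4 ± 3.45 CPM in WT cells. Its log2 change of 2.52 at 0 h was 5.01 at 1 h, 4.71 at 2 h and 3.98 at 4 h, with differences from 0 h of 2.49 ± 0.32 (adjusted p = 5.31e-06), 2.20 ± 0.32 (adjusted p = 0.00015) and 1.46 ± 0.32 (adjusted p = 0.00844). Prkag2, Pag1 and Tasp1, lower at 0 h by 0.51, 0.51 and 0.75 on the log2 scale (changes of -0.51, -0.51 and -0.75), had changes of 0.55, 0.40 and 0.06 at 4 h, with differences of 1.06 ± 0.17, 0.91 ± 0.19 and 0.81 ± 0.19 (adjusted p = 0.00011, 0.00454 and 0.0129). The genes named here were picked by their changes at 0 h, and these tests use the same 0 h libraries, which favours moves towards 0. Under the deposited scaling the 4 h differences of Prickle1, Prkag2, Pag1 and Tasp1 were 0.93, 0.52, 0.37 and 0.27 and were no longer called (adjusted p = 0.066, 0.0516, 0.208 and 0.363), while that of Pou2f2 still was. Without the library farthest out in each group the 4 h differences of Prickle1 and Tasp1 were not called (1.37 and 0.75), while those of Pou2f2, Prkag2 and Pag1 were. Icos had changes of 2.29, 2.26, 2.33 and 2.02 at 0, 1, 2 and 4 h and was called at each time.

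**Figure D5:**
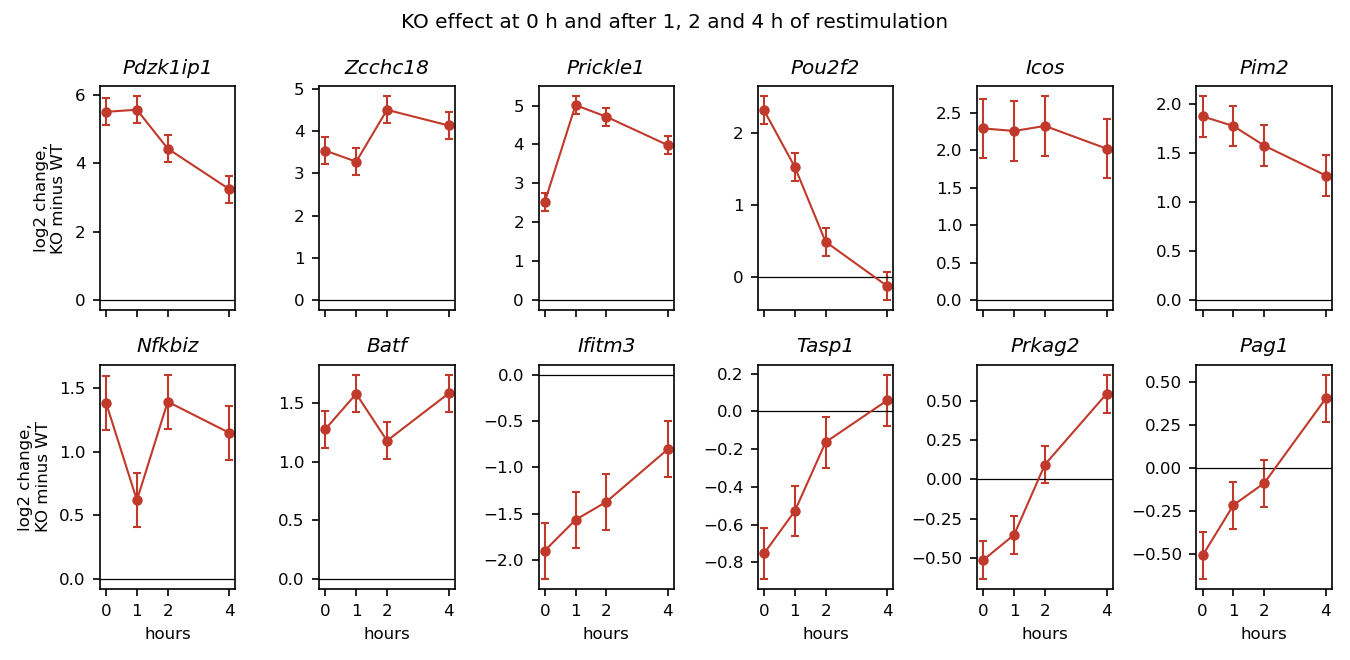
Log2 change, KO minus WT (vertical axis, its own range in each panel), with ± SE bars, at 0 h and after 1, 2 and 4 h of restimulation (horizontal axis) for 12 genes. Prickle1 goes to 5.01 at 1 h, Pou2f2 to -0.13 at 4 h, Icos stays between 2.02 and 2.33, and Prkag2 and Pag1 cross 0 to 0.55 and 0.40 at 4 h.

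The authors' deposited table gave 86 of 23134 genes (0.372%) at a false discovery rate under 0.05 for this comparison, 84 of them higher and 2 lower in KO cells. That rate is headed worst FDR, which the header does not define. The authors' log2 change for Pdzk1ip1 was 2.67, against 5.51 here, so the 2 sets of calls rest on unlike measures. The calls made here shared 75 of the higher genes (89.3% of the authors' deposited list and 39.9% of the 188) and both of the lower genes (100% and 7.41% of the 27).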

How the data were processed

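RNA sequencing of 64 libraries (16 groups of 4) was deposited as 1 table of 23134 genes. Per the file headers, each group is a list of 4 normalized counts without replicate numbers, so libraries are named by their place in the list. The authors also deposited a log2 fold change and an FDR (adjusted p-value) for each comparison, the latter headed worst FDR. The submitters' processing notes name GRCm38; the sources used here give no aligner, counting tool or strand setting. Low values stepped in whole reads in every library (tolerance 0.1), so reads were recovered from the deposited values (5369858 to 11666495 per library, which limits precision for genes with few reads). Libraries were then put on a common scale with TMM factors (30% of ratios and 5% of levels trimmed), and 16140 genes with at least 10 reads at median depth in 4 libraries and 15 in all were kept. limma 3.58.1 (R 4.3.3, statmod 1.5.0) fitted 16 group means to log2(value + 1) over all 64 libraries with 48 residual degrees of freedom, a trended, robust variance and Benjamini-Hochberg adjustment. It was tested on simulated data. Single levels were tested by exact permutation. Of the table's IDs, 22724 matched GENCODE vM21. Intervals for ratios of reads reflect counting alone. Whether the 4 libraries of a group are 4 animals is not in the labels, so the p-values rest on a spread that could be partly technical.

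Genes were named by rule: the 12 largest rises and 12 largest falls among called genes with no overlap and at least 5 CPM in the higher group, up to 3 called members (or the 2 most abundant) of each list, the known targets, and the 3 largest differences each way against DKO and TKO cells. Predicted and clone names were not named. The comparison, the lists and the named genes were chosen with earlier results of these data known. Alternatives covered scaling, filter, pseudocount, libraries used, limma voom, a replicate block and leaving out each library.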

Additional observations from a re-analysis of the deposited data

Results flagged for a closer look

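In 24 of 216 groups of 4 libraries tested, 1 library stood far from the other 3 (Dixon's test at 95%), where chance flags about 1 in 20 groups. Among genes called higher, these were Pdzk1ip1 with 0 CPM in 1 WT library (others 0.11 to 0.13), Sema3b with 0.221 CPM in 1 WT library (others 0), and Ermn with 17.4 CPM in 1 KO library (others 4.06 to 5.50). Kit had 5.64 CPM in 1 KO library (others 13 to 13.8), and Gpld1 had 33.3 CPM in 1 WT library (others 5.51 to 7.65). Pim2 had 113 CPM in 1 WT library (others 68.1 to 71.7), Tnfsf14 had 3.61 CPM in 1 KO library (others 2.94 to 2.96), and Gbp5 had 46.6 CPM in 1 KO library (others 35.7 to 37.5).

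Among genes called lower, Ifitm3 had 10.5 CPM in 1 KO library (others 7.31 to 7.59), Lair1 had 31.8 CPM in 1 WT library (others 17.1 to 18.1), and Tgfbr1 had 95.3 CPM in 1 WT library (others 52.7 to 55.2). Prkag2 had 25.4 CPM in 1 KO library (others 20.4 to 21.0), Pag1 had 139.6 CPM in 1 KO library (others 157 to 158), and Dapl1 had 6.99 CPM in 1 KO library (others 1.07 to 2.00). Among genes not called against WT, Cd8b1 and Cd8a had 19.1 and 16.4 CPM in KO library 3, Irf4 had 99.9 CPM and mt-Co1 had 3921 CPM in 1 WT library, and Hsp90ab1 had 876 CPM and Itga2b 2.26 CPM in 1 KO library. Tnfrsf8 had 13.9 CPM in 1 KO library and 7.06 CPM in 1 WT library, and Lbp had 1.21 CPM and Dlk1 0.221 CPM in 1 WT library.

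The KO effect after restimulation differed from that at 0 h for 9 of the named genes, by an interaction test in limma with Benjamini-Hochberg adjustment. These genes were picked by their changes at 0 h, and the test uses the same 0 h libraries, which favours moves towards 0. Prickle1 had differences in log2 change of 2.49, 2.20 and 1.46 at 1, 2 and 4 h, and Pou2f2 had -1.82 and -2.44 at 2 and 4 h. At 4 h the differences were -2.26 for Pdzk1ip1 (adjusted p = 0.0205), 1.06 for Prkag2, 0.91 for Pag1, 0.84 for Prkce (adjusted p = 0.0237), 0.81 for Tasp1, 0.76 for Tgfbr1 (adjusted p = 0.0434) and 0.71 for Smad5 (adjusted p = 0.0144), when the median of all genes was 0.21. The calls at 4 h were lost without KO library 1 or WT library 3 for Pdzk1ip1 and Prkce, without WT library 3 for Smad5, and without KO library 1, 2 or 3 or WT library 3 for Tgfbr1. Under the deposited scaling the differences of Smad5, Tgfbr1 and Prkce at 4 h were 0.18, 0.22 and 0.31 and were not called, nor were those of Prickle1, Prkag2, Pag1 and Tasp1. Without the library farthest out on the first component in each KO and WT group Pdzk1ip1, Prickle1, Prkce, Tasp1, Tgfbr1 and Smad5 were not called at 4 h.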

How the results depend on the processing

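No call of a named gene turned to the other direction under the alternatives run; genes that were not called could change sign, as Gzmb did within libraries with Xist (-0.53) and Il18r1 within those without (-0.38), and the balance of higher and lower genes turned with the deposited scaling in TKO against KO cells and at 4 h. Of 215 genes called in KO against WT cells (188 higher, 27 lower), the deposited scaling gave 2476 (2454 higher), a fit to the 8 libraries alone 94 (88 and 6), and a fit to the 0 h libraries 129 (120 and 9). The lower genes numbered 53 with median-of-ratios factors, 41 with upper-quartile factors, 44 with reads outside the 10 most abundant loci, 93 with a filter of 50 reads and 48 with limma voom. Leaving out single libraries gave 146 to 242 called genes (129 to 198 higher; 13 to 44 lower, with 13 without WT library 3 and 44 without WT library 4). Chosen after seeing the data: without KO library 4 and WT library 3, 138 were called (6 lower); without all 4 libraries at 0 h that stood apart, 7 were lower; within libraries without Xist 73 (69 and 4), and within those with Xist 35 (29 and 6). KO against DKO cells (191 called) ranged from 107 without DKO library 3 to 221, with 109 without KO library 1, 118 without KO library 3 and 127 without DKO library 1, and stood at 97 without the 4 libraries. TKO against KO cells (3284 called) ranged from 2060 without KO library 1 to 3231. The deposited scaling gave 145, 321 and 967 genes whose KO effect at 1, 2 and 4 h differed from 0 h (4, 33 and 354 in the fit reported); leaving out single libraries gave 2 to 4 at 1 h and 100 (without WT library 3) to 1089 (without WT library 4) at 4 h, with 166, 210 and 235 without KO library 1, KO library 3 and WT library 1. At 4 h itself the deposited scaling gave 2953 genes against 5415. Also chosen after seeing the data: without the library farthest out on the first component in each KO and WT group, 1451 genes were called at 2 h (961 in the fit reported) and the KO effect at 4 h differed from 0 h for 82. Rc3h1 and Rc3h2 differed by 20.6 and 26.5 CPM, KO minus WT, under the deposited scaling set to the same WT mean (exact permutation p = 0.0286 for both, n = 4 each). The cause of these shifts was not tested. The place in the list does not pair the libraries (residual correlations 0.01, -0.10, -0.23 and -0.50); with it as a replicate block 226 genes were called, 194 against DKO cells and 3324 in TKO against KO cells, and of the named calls it ended that of Lair1. Count tests planned with edgeR and DESeq2 were not run. Depth limits the genes under 1 CPM in WT cells, whose folds rest on few reads.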
